A study of Mus musculus with 9 samples.

Results

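The granzymes, perforin and the other effectors by which lymphocytes kill or alarm target cells were examined in libraries of mouse oral mucosa. The set holds 8 genes of the 55342 gene names in the files, a named list drawn up with earlier results of these data known: Gzma, Gzmb, Gzmc, Prf1, Ctsw, Nkg7, Ifng and Tnfsf10. RNA-seq was made from labial mucosa biopsies of mice that had been infected before the biopsy, with 3 libraries from each of the strains B6, Tac111 and Tac146. The labels give neither the agent, its dose and the time since infection, nor the age of the mice, nor the alleles behind the names Tac111 and Tac146. They describe the RNA of the B6 libraries as coming from ILC1 cells, a tissue-resident innate lymphocyte, and that of the Tac111 and Tac146 libraries as coming from T cells. In each comparison with B6, strain and labelled cell type therefore change together and cannot be told apart. Tac111 and Tac146 carry the same cell label. Nothing says whether the 3 libraries of a strain came from separate mice or pooled mice, so p-values measure only the spread between libraries, which may be technical.

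Cytotoxic lymphocytes store granzymes, which are serine proteases, and perforin in secretory granules. On contact with a target cell the granules are released, perforin opens a path through the membrane, and the granzymes enter and cleave proteins that start cell death. The same cells can also kill through death ligands on their surface, such as TRAIL, and secrete interferon gamma, which changes gene expression in the tissue around them. In the mouse, granzyme C belongs to a group of granzymes that natural killer cells, ILC1 cells and activated T cells can express.

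The libraries held 27192359 to 46456500 expected counts, the estimated reads per gene deposited by the authors. Most of what they measured was tissue. Keratinocyte keratins alone took 6.49% to 9.96% of all counts and 6 skeletal muscle genes 1.52% to 2.96%, whereas 15 T cell markers took 0.00167% to 0.0029% and 19 ILC1 and NK cell markers 0.00138% to 0.0039%. The labelled T cells were not seen in the Tac111 libraries by their defining transcripts: Cd3d, Cd3e and Cd3g, whose products carry the signal of the T cell receptor, were at 0 counts in each of the 3. The Tac146 libraries, also labelled T cells, held 21 counts of Cd3e in all, against 135 in the B6 libraries labelled ILC1. In such bulk samples, fewer cells of a type and less RNA per cell cannot be told apart.

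Promoter sequences of 4 effector genes are shown first, to set beside each other genes of unlike level in these libraries. The windows are those of RefSeq on GRCm38.p6, from which 280 bases are printed, 250 before the transcription start and 30 from it on, on the strand of the gene. Capitals mark the letters AGGTGT, the core of T-box factors such as T-bet and Eomes, and TGTGGT, the core of RUNX factors, on either strand, so that a match on the opposite strand reads ACACCT or ACCACA. Gzmc and Nkg7 carry both kinds of letters, Gzmb carries RUNX letters only, and Tnfsf10 carries neither. Gzma and Prf1, which were scarce in every strain, also carry both kinds, and no relation between these letters and the levels was tested.
Gzmc, chr14:56234628-56234907, minus strand: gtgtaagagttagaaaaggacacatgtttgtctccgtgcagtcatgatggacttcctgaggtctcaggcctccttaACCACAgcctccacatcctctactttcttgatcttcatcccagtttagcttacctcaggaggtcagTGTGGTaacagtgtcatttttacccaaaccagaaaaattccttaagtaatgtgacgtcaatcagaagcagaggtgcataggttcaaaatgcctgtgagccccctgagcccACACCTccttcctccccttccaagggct
Nkg7, chr7:43436888-43437167, plus strand: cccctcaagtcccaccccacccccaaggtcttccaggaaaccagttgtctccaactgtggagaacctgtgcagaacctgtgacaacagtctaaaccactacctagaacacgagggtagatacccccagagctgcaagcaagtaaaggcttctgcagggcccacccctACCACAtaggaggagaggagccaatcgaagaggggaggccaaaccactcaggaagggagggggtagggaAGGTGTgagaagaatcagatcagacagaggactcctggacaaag
Gzmb, chr14:56262305-56262584, minus strand: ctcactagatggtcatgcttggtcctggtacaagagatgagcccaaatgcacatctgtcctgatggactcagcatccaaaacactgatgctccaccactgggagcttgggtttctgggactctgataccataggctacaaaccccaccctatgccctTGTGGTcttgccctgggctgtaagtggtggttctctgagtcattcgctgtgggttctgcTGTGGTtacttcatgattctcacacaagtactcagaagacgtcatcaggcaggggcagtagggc
Tnfsf10, chr3:27316827-27317106, plus strand: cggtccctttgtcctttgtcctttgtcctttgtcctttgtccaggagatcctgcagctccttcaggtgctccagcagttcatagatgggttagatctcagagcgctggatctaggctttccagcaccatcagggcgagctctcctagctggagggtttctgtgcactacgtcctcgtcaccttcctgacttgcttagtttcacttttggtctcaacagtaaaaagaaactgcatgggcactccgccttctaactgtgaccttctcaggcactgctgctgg
Promoters of 7 of the 8 genes were matched by symbol, all but that of Ctsw, and both strands of the whole 300-base windows were searched. The T-box letters were present in 4 of these 7, Gzma, Gzmc, Prf1 and Nkg7, and in 13.7% of the 32851 promoters in the table. The RUNX letters were present in 5 of the 7, in the same 4 genes and in Gzmb, and in 16.8% of all promoters. The T-box letters began 14 bases before the start in Nkg7, 24 bases before it in Prf1, 80 bases before it in Gzma and 3 bases after it in Gzmc. Letters of STAT factors, TTCNNNGAA, were in the windows of Gzmb, Nkg7 and Ifng and in 8.3% of all promoters. Letters of AP-1, TGANTCA, were in that of Gzmb and in 7.81% of all, and those of the interferon-stimulated response element in that of Gzma and in 3.44% of all. The window of Tnfsf10 held none of the 5. No 2 of these letter strings overlap in the 4 windows printed. A match describes the letters of the window and says nothing of what is bound there.

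Gzmb and Gzmc lie in a run of 7 granzyme genes on the minus strand of chromosome 14, which spans 144635 bases from 56117626 to 56262260 (GRCm38, GENCODE annotation). Gzmc occupies chr14:56231441-56234656 and Gzmb chr14:56258838-56262260. Gzma is at chr13:113093825-113100981 on the minus strand, Prf1 at chr10:61297833-61304680, Nkg7 at chr7:43437073-43438249, Ifng at chr10:118441046-118445892 and Tnfsf10 at chr3:27317028-27342427, the last 4 on the plus strand. Ctsw, at chr19:5465043-5468507 on the minus strand, overlaps Fibp on the opposite strand. Of the 50-base windows of the Gzmc transcripts, 4.14% also occur in Gzmd, Gzme or Gzmg, and reads from these stretches cannot be assigned to a single gene with certainty. Gzmd, Gzme, Gzmg, Gzmf and Gzmn, the other genes of the run, had 0 counts in all 9 libraries. Of the windows of Ifng, 13.5% are shared with the overlapping Gm49751, so the few counts of Ifng are uncertain.

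Granzyme C was the leading granzyme in B6 and Tac146 and was not detected in Tac111. Gzmc had 187, 134 and 208 counts in the B6 libraries of replicates 1, 2 and 3, and 283, 299 and 365 in the Tac146 libraries of replicates 2, 3 and 4. In each of the 3 Tac111 libraries it had 0 counts. The 3 Tac111 libraries thus lay below all others, while B6 and Tac146 overlapped. As CPM, counts relative to the library total after scaling for composition, the level was 5.34 ± 1.35 (SD, n = 3) in B6 and 7.83 ± 1.47 (SD, n = 3) in Tac146. Setting the Tac111 group at its floor of 3 counts over the 3 libraries, the level was at least 163-fold lower than in B6 and at least 239-fold lower than in Tac146. The fall passed edgeR's quasi-likelihood test after Benjamini-Hochberg adjustment over all genes tested, with an adjusted p of 7.24e-05 against B6 and 2.98e-05 against Tac146. Gzmc was 0.55 higher in Tac146 than in B6 on the log2 scale (SE 0.22, 95% interval 0.06 to 1.05), with an unadjusted p of 0.0322 and an adjusted p of 0.663 in the edgeR fit, so it did not pass the test.

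**Figure D1:**
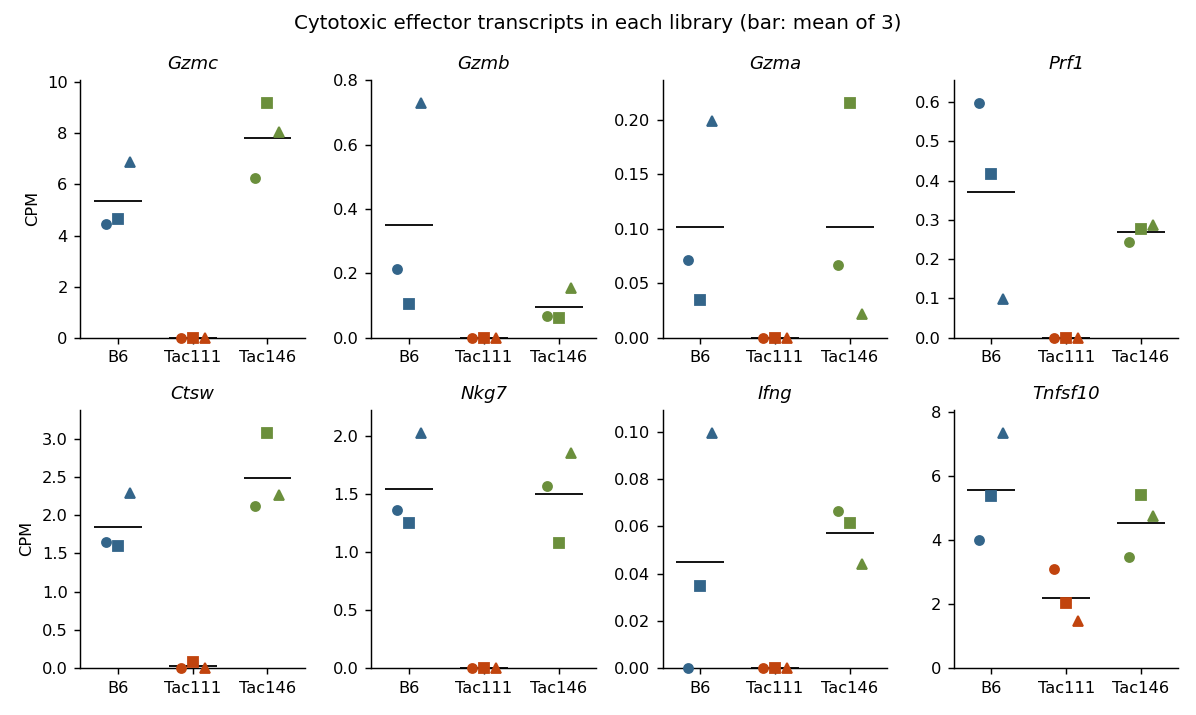
CPM of the 8 effector genes in each library of B6, Tac111 and Tac146 (circle, square and triangle: the libraries of the strain in order of replicate number; bar: mean of 3; each panel has its own axis from 0). Tac111 lies at 0 for 6 genes, Ctsw has 2 counts in 1 Tac111 library, and Tnfsf10 stays at 1.45 to 3.08 CPM there.

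Granzyme B, the main apoptosis-inducing granzyme of many killer cells, was scarce. Gzmb had 9, 3 and 22 counts in B6, 0 in each Tac111 library, and 3, 2 and 7 in Tac146. The B6 library of replicate 3 held most of the B6 counts, and B6 and Tac146 overlapped. Gzma, a granzyme with trypsin-like specificity, had 3, 1 and 6 counts in B6, 0 in each Tac111 library, and 3, 7 and 1 in Tac146. Its B6 and Tac146 levels, 0.102 ± 0.0860 and 0.101 ± 0.101 CPM (SD, n = 3 each), lay within each other's spread. A count of 0 in a Tac111 library allows up to 0.0872 to 0.108 CPM, that is 3 counts, so single libraries could not have shown a level such as that of Gzma in Tac146 replicate 4. Over the whole group, Tac111 was at least 10.5-fold below B6 for Gzmb and at least 3.08-fold below it for Gzma. Against Tac146 these bounds were 3.03-fold and 2.78-fold. Without B6 replicate 3 the bounds against B6 were 5.28-fold and 1.76-fold, without Tac146 replicate 4 that of Gzmb against Tac146 was 2.00-fold, and without Tac146 replicate 3 that of Gzma was 1.37-fold. These limits and all counting intervals cover counting error only.

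Neither gene passed the filter on low counts, and in the edgeR fit with no filter Gzmb fell in Tac111 against B6 with an adjusted p of 0.00752. In that fit 3.7% of 27531 genes were called between Tac111 and B6, 7.86% between Tac111 and Tac146 and 0.469% between Tac146 and B6. Gzmb did not pass against Tac146 (adjusted p = 0.0794), and Gzma passed against neither strain (adjusted p = 0.155 and 0.105 in edgeR). Between Tac146 and B6, Gzmb differed by -1.80 on the log2 scale (SE 0.76, 95% interval -3.38 to -0.22) in the same fit, with an unadjusted p of 0.0274 and an adjusted p of 0.718. In counts, the B6 level was 3.46 times the Tac146 level, with a 95% counting interval of 1.75 to 7.34, but 1.74 times without B6 replicate 3 and 5.25 times without Tac146 replicate 4. Gzma differed by -0.07 on that scale, with an interval of -2.09 to 1.94, too wide to place it.

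Among the counts of Gzma, Gzmb and Gzmc together, Gzmc made up most in every library that had any. In B6 its share was 94.0% (exact Clopper-Pearson 95% interval 89.7 to 96.8, of 199 counts) in replicate 1, 97.1% (92.7 to 99.2, of 138) in replicate 2 and 88.1% (83.3 to 92.0, of 236) in replicate 3. In Tac146 it was 97.9% (95.5 to 99.2, of 289), 97.1% (94.5 to 98.7, of 308) and 97.9% (95.8 to 99.1, of 373) in replicates 2, 3 and 4. The B6 library of replicate 3 stood lowest, the interval of replicate 1 ended just below the Tac146 shares, and that of replicate 2 spanned them. These shares compare counts of genes of unlike length. Per kilobase of merged exon, the mean level of Gzmc was 5.97 CPM per kb in B6 against 0.243 for Gzmb and 0.101 for Gzma, and in Tac146 it was 8.76 against 0.0655 and 0.101.

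Perforin, the pore-forming protein of the granules, followed the granzymes at a low level. Prf1 had 25, 12 and 3 counts in B6, 0 in each Tac111 library, and 11, 9 and 13 in Tac146. B6 spread widely, from 0.0994 CPM in replicate 3 to 0.597 in replicate 1, while the Tac146 libraries were close together at 0.269 ± 0.0226 CPM (SD, n = 3), within the B6 range. The B6 replicate with the highest Gzmb and Gzmc had the lowest Prf1. Tac111 was at least 12.3-fold below B6, or 7.91-fold without B6 replicate 1, and at least 8.33-fold below Tac146. Prf1 did not pass the filter on low counts, and with no filter edgeR gave an adjusted p of 0.00183 against B6 and 0.00393 against Tac146. It passed the filter in 7 of the fits that left out 1 library. There it was called lower than in B6 without B6 replicate 3 (edgeR adjusted p = 0.0086) or any 1 Tac146 library (0.0263 to 0.0416), and not without any 1 Tac111 library (0.0609 to 0.0808). Against Tac146 it was called without B6 replicate 3 (0.0118) or Tac146 replicate 2 (0.0399), and not without any 1 Tac111 library (0.0587 to 0.0935) or Tac146 replicate 3 (0.0735) or 4 (0.0578). Between Tac146 and B6 the log2 difference was -0.49 (SE 0.57, 95% interval -1.67 to 0.69) in the edgeR fit with no filter, with an adjusted p of 0.836.

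Cathepsin W, a papain-family protease of cytotoxic lymphocytes, and NKG7, a membrane protein of their granules, were of the same order as each other and fell with Gzmc. Ctsw had 69, 46 and 69 counts in B6, 0, 2 and 0 in Tac111, and 96, 100 and 103 in Tac146. The Tac111 library of replicate 2 gave the only 2 effector counts of that strain outside Tnfsf10, and no Tac111 library reached another strain's range. The mean Ctsw level was 1.84 ± 0.383 CPM in B6 and 2.49 ± 0.510 CPM in Tac146, beside 0.0241 ± 0.0417 CPM in Tac111 (SD, n = 3 each). With only 2 counts in Tac111, B6 was 85.1 times higher by summed counts (95% counting interval 23.2 to 708) and Tac146 113 times (31.1 to 939). EdgeR gave a log2 difference of -6.20 (SE 0.57, adjusted p = 0.000346) for Tac111 against B6 and -6.63 (SE 0.55, adjusted p = 0.000118) against Tac146. Without Tac111 replicate 2 the group is at 0 and lay at least 39.9-fold below B6 and 53.1-fold below Tac146. The fall from B6 passed the test there too, as it did in all 17 alternatives (adjusted p up to 0.00309).

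Nkg7 had 57, 36 and 61 counts in B6, 0 in each Tac111 library, and 71, 35 and 84 in Tac146. Tac111 lay apart from the others, and B6 and Tac146 overlapped at 1.54 ± 0.416 and 1.50 ± 0.393 CPM (SD, n = 3 each). Tac111 was at least 47.5-fold below B6 and at least 48.0-fold below Tac146, with edgeR adjusted p of 0.000716 and 0.000409. Between Tac146 and B6, Ctsw differed by 0.43 on the log2 scale (SE 0.29, 95% interval -0.21 to 1.07) and Nkg7 by -0.03 (SE 0.29, 95% interval -0.69 to 0.63). Neither passed the edgeR test, with adjusted p of 0.782 and 0.989. Both intervals include differences in either direction.

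Interferon gamma itself was at the edge of detection. Ifng had 0, 1 and 3 counts in B6, 0 in each Tac111 library, and 3, 2 and 2 in Tac146. It was the only 1 of the 8 genes whose Tac111 libraries overlapped B6, through the B6 library at 0. It did not pass the filter on low counts, and with no filter edgeR gave adjusted p of 0.389 for Tac111 against B6 and 0.207 against Tac146. Tac146 and B6 differed by 0.44 on the log2 scale in that fit, with a 95% interval of -2.05 to 2.92. A difference in Ifng was thus not detectable at this depth.

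TRAIL, the death ligand encoded by Tnfsf10, was the only effector present in all 9 libraries. Tnfsf10 had 167, 154 and 221 counts in B6, 96, 56 and 50 in Tac111, and 156, 176 and 215 in Tac146. Its levels of 3.99, 5.36 and 7.32 CPM in B6 and 3.45, 5.41 and 4.74 CPM in Tac146 overlapped. All 3 Tac111 libraries, at 3.08, 2.02 and 1.45 CPM, lay below every other library, though replicate 1 came near the lowest Tac146 library. Tac111 differed from B6 by -1.34 on the log2 scale (SE 0.30, 95% interval -2.02 to -0.67, edgeR adjusted p = 0.0368), and the summed counts gave a B6 level 2.48 times that of Tac111 (95% counting interval 2.11 to 2.93). The call was lost without B6 replicate 2 (edgeR adjusted p = 0.106), B6 replicate 3 (0.135), Tac111 replicate 2 (0.131) or Tac111 replicate 3 (0.130). Against Tac146 the difference was -1.05 (SE 0.30, 95% interval -1.72 to -0.38) and did not pass the edgeR test (adjusted p = 0.0551), although it did without Tac111 replicate 1 (0.0395) or without Tac146 replicate 2 (0.0403). That difference was also called by edgeR with no filter (adjusted p = 0.00988) and by DESeq2 (adjusted p = 0.00902). Between Tac146 and B6 it was -0.29 (SE 0.29, 95% interval -0.93 to 0.34, edgeR adjusted p = 0.831).

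Of the 8 genes, 4 passed the filter on low counts, Gzmc, Ctsw, Nkg7 and Tnfsf10, among 16523 genes tested. Gzmc, Ctsw and Nkg7 passed only through B6 and Tac146, so that a difference from Tac111 was built into their passing. All 4 were called lower in Tac111 than in B6, where 2.8% of all genes tested were called lower, 1.02% higher and 3.81% in either direction. Against Tac146, Gzmc, Ctsw and Nkg7 were called lower, where 6.27% of all genes were called lower, 2.62% higher and 8.89% in either direction. With upper-quartile scaling the calls of that last comparison moved from 1036 lower and 433 higher to 822 lower and 609 higher. Without regard to the filter, 7 of the 8 genes had all Tac111 libraries below all B6 libraries, as did 15.8% of the genes tested, and all 8 had them below all Tac146 libraries, as did 18.4%. Those shares cover only genes that passed the filter, which Gzma, Gzmb, Prf1 and Ifng did not, so the 2 sets are unlike. Gzmc, Ctsw, Nkg7 and Tnfsf10, which passed, lay below in both comparisons. The 2 comparisons share the Tac111 libraries.

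Between Tac146 and B6, 0 of the 4 genes tested passed by edgeR, where 0.303% of all genes did. Only Gzmc, 1 gene, had an unadjusted p under 0.05, and DESeq2 and limma called 0 as well. The libraries of these 2 strains overlapped for each of the 8 genes, of which only 4 were tested. Among all genes tested, 6.29% lay lower and 6.36% higher in Tac146 without overlap. The intervals of the 4 tested genes ran from -0.93 at the lowest to 1.07 at the highest on the log2 scale.

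**Figure D2:**
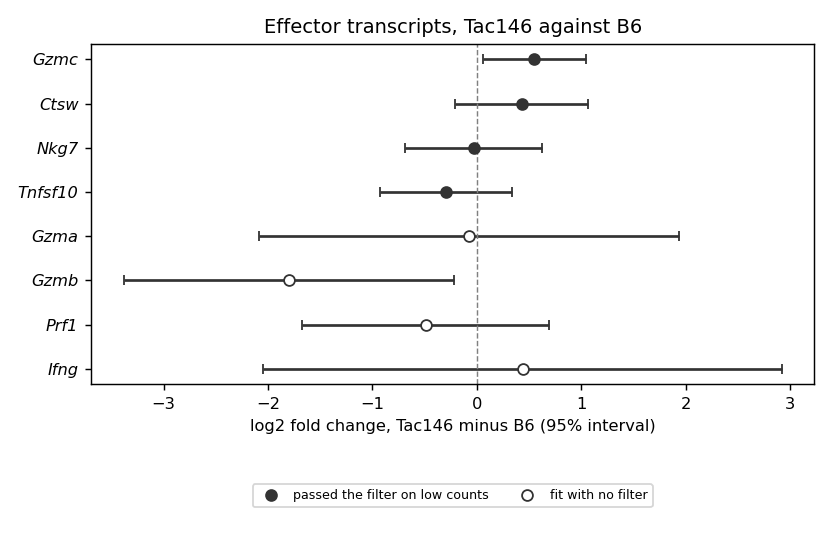
Log2 fold change of each effector gene in Tac146 against B6 with its 95% interval (filled: genes that passed the filter on low counts; open: genes from the fit with no filter). The 4 filled points have intervals within -0.93 to 1.07, and the open points of Gzma and Ifng have intervals more than 4 log2 units wide.

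The order of the genes was compared within each strain. Per kilobase of merged exon, B6 had Gzmc at 5.97 ± 1.51 CPM per kb, Nkg7 at 1.75 ± 0.472, Ctsw at 1.49 ± 0.309 and Tnfsf10 at 1.05 ± 0.318 (SD, n = 3 each). Gzmc stood clear of Nkg7, whereas Nkg7, Ctsw and Tnfsf10 overlapped their neighbours. The remaining genes lay below Tnfsf10 without overlap, at means of 0.243 for Gzmb, 0.144 for Prf1, 0.101 for Gzma and 0.0370 CPM per kb for Ifng, and overlapped each other. In Tac146 the order was Gzmc at 8.76 ± 1.65, Ctsw at 2.01 ± 0.411, Nkg7 at 1.70 ± 0.447 and Tnfsf10 at 0.861 ± 0.189 CPM per kb (SD, n = 3 each). There only Ctsw and Nkg7 overlapped among these 4, and Prf1, Gzma, Gzmb and Ifng followed at 0.104, 0.101, 0.0655 and 0.0474 with overlapping ranges. In Tac111, Tnfsf10 at 0.415 ± 0.156 CPM per kb stood alone above Ctsw at 0.0194.

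Leaving out Tnfsf10, the make-up of the effector counts could be compared between B6 and Tac146. Gzmc gave 53.4% to 57.5% of the counts of the other 7 genes in the B6 libraries and 60.2% to 65.9% in the Tac146 libraries, without overlap. Ctsw gave 18.5% to 19.7% in B6 and 17.9% to 22.0% in Tac146, and per 100 Gzmc counts it stood at 36.9, 34.3 and 33.2 in B6 and at 33.9, 33.4 and 28.2 in Tac146. Prf1 stood at 1.44 to 13.4 per 100 Gzmc counts in B6, a wider range than that of Ctsw. Nkg7 gave 15.5% to 16.4% in B6 and 7.71% to 15.1% in Tac146, with the low value in Tac146 replicate 3. Prf1 ran in B6 from 0.806% in replicate 3 to 7.14% in replicate 1 and in Tac146 from 1.98% to 2.34% in Tac146. Gzmb gave 1.29% to 5.91% in B6 and 0.441% to 1.22% in Tac146, again without overlap, on the few counts given above. These shares were described only, with no test.

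**Figure D3:**
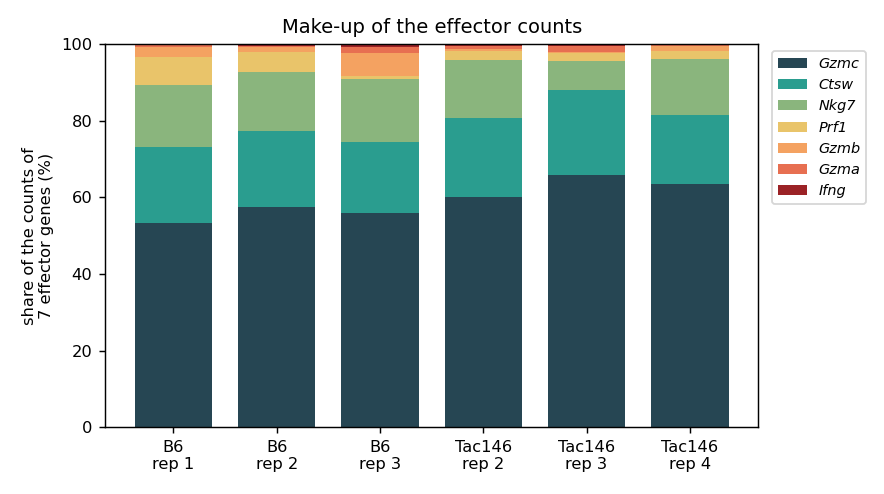
Share (%) of each gene in the counts of 7 effector genes, all but Tnfsf10, in each B6 and Tac146 library (stacked bars, 1 a library; Tac111 libraries have 0 to 2 such counts and are not drawn). Gzmc takes 53.4% to 57.5% of each B6 bar and 60.2% to 65.9% of each Tac146 bar.

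Markers of several cell types differed between the strains. Of the 19 ILC1 and NK cell markers, 14 were tested and 10 fell in Tac111 against B6 (Ncr1, Klrb1b, Klrb1c, Klrc1, Klrk1, Itga1, Il2rb, Xcl1, Cd160 and Cd7), and 0 were called between Tac146 and B6 by edgeR, DESeq2 or limma, with 0 at an unadjusted p under 0.05. Over all genes tested, 2.8% were called lower in Tac111 than in B6, and 0.303% were called between Tac146 and B6. Ncr1, Klrb1c, Klrc1, Klrk1, Il2rb, Xcl1, Cd160 and Cd7 passed the filter on low counts only through B6 and Tac146. A difference from Tac111 was thus built into their passing. The summed level of the 19 markers was 32.9 to 36.4 CPM for B6, 14.4 to 20.2 CPM for Tac111 and 34.4 to 40.0 CPM for Tac146. What remained in Tac111 was mostly 2 integrins, Itga1 and Itga2, which gave 81.5% ± 6.52 (SD, n = 3) of the marker counts there and 56.9% ± 3.97 in B6, and which other cells also carry. Ncr1, Klrc2, Klre1, Eomes, Xcl1 and Cd160 were at 0 in all Tac111 libraries. Of the 14 tested, Klrd1, Itga2, Tbx21 and Txk were not called in Tac111 against B6 by edgeR or DESeq2. They were at 0.559, 8.80, 1.06 and 0.468 CPM in B6 and at 0.297, 7.56, 0.648 and 0.438 CPM in Tac111. Of the calls against B6, that of Klrc1 was lost without any 1 of 5 libraries (B6 replicates 1, 2 and 3 and Tac111 replicates 1 and 2, edgeR adjusted p 0.0587 to 0.112), and that of Itga1 without B6 replicate 2 or 3 or Tac111 replicate 2 or 3 (0.0575 to 0.112). With limma those of Klrc1 (0.0784) and Ncr1 (0.0597) were lost.

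Il2rb, a receptor chain for interleukins 2 and 15, had a level of 3.34 ± 0.790 CPM in B6 and 3.88 ± 0.928 CPM in Tac146, beside 0.0588 ± 0.0759 CPM in Tac111 (SD, n = 3 each). Xcl1, a chemokine of NK cells and other lymphocytes, had 44, 32 and 40 counts in B6, 0 in each Tac111 library and 43, 45 and 72 in Tac146. Il2rg encodes the common gamma chain of several interleukin receptors and was chosen after its values were seen. Its level was 5.04 ± 0.201 CPM in B6 and 4.35 ± 0.891 CPM in Tac146, beside 0.118 ± 0.0100 CPM in Tac111 (SD, n = 3 each). Ptprc, which all leukocytes carry, fell less, from 11.2 ± 0.592 CPM in B6 to 4.69 ± 0.316 in Tac111 (SD, n = 3 each, log2 difference -1.26, SE 0.12, edgeR adjusted p = 0.000389). All 4 endothelial markers were also called lower in Tac111 than in B6, at a summed 67.2 to 70.9 CPM against 114 to 142. The call of Tek, 1 of the 4, was lost without B6 replicate 2 or 3 or any 1 Tac111 library (edgeR adjusted p 0.0552 to 0.105).

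Some T cell markers moved otherwise. Cd3e was at 1.69, 0.974 and 1.19 CPM in B6, 0 in each Tac111 library, and 0.177, 0.215 and 0.132 in Tac146. All Tac146 libraries thus lay below all B6 libraries for Cd3e, where none of the 8 effectors did. Of 12 T cell markers tested, 5 were called lower in Tac146 than in B6 (Cd3d, Cd3e, Cd3g, Trac and Trdc), with adjusted p of 0.0161 for Cd3e, 0.0405 for Cd3g and 0.00651 for Trdc in edgeR. Over all genes tested, 0.109% were called lower there. Cd3d, Cd3e, Cd3g, Trac and Trdc passed the filter on low counts only through B6, so a fall from B6 was built into their passing. DESeq2 also called Cd247, Cd4 and Cd6. Trbc1, Trbc2, Cd5 and Cd28 were called by neither. They were at 0.851, 6.42, 8.36 and 0.706 CPM in B6 and at 0.893, 5.97, 8.23 and 0.686 CPM in Tac146. Without 1 library the calls of Cd3d, Cd3e, Cd3g and Trac were each lost for several choices of B6 or Tac146 library, with edgeR adjusted p of 0.0529 to 0.182, those of Cd3g and Trac also without Tac111 replicate 3 (0.052 and 0.0864), that of Trac without Tac111 replicates 1 and 2 as well (0.0765 and 0.102), and that of Trdc for none. With only the 6 libraries compared the calls of Cd3g (0.0649) and Trac (0.16) were lost, and with limma that of Trac (0.114). With replicate number added to the edgeR fit as a block, all 5 calls were lost, that of Trdc included (adjusted p 0.0838 to 0.21). The summed level of all 15 was 23.0 to 28.3 CPM for B6, 16.6 to 19.3 CPM for Tac111 and 17.0 to 18.3 CPM for Tac146, and Cd5 and Trbc2 gave 87.5% ± 0.119 (SD, n = 3) of the marker counts in Tac111. Cd3d, Cd3e, Cd3g, Cd8a, Cd8b1 and Cd6 were at 0 in all Tac111 libraries. The part of these cell markers in the effector results was not tested.

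Myeloid markers differed as well. Of 7 tested macrophage and dendritic cell markers, edgeR called 2 lower in Tac111 than in B6, Itgax and Cd207, the latter a marker of Langerhans cells. DESeq2 also called Adgre1 and Csf1r there. Adgre1 was at 9.53 ± 0.814 CPM in B6 and 5.43 ± 1.04 in Tac111, and Csf1r at 41.2 ± 5.32 and 24.0 ± 2.20 (SD, n = 3 each). Itgax ran from 4.01 to 6.73 CPM in B6, from 1.34 to 1.60 CPM in Tac111 and from 6.30 to 7.03 CPM in Tac146, and Cd207 from 4.56 to 7.30, from 1.19 to 2.09 and from 7.80 to 8.66. Tac111 lay below both other strains for each. Against Tac146, Itgax, Cd207, Adgre1 and Csf1r were called lower, those of Adgre1 and Csf1r near the threshold (edgeR adjusted p = 0.0498 and 0.0424). The calls of Adgre1 and Csf1r were lost without B6 replicate 1, 2 or 3, Tac111 replicate 1, 2 or 3, or Tac146 replicate 2 or 3 (0.0538 to 0.164), with only the 6 libraries compared, with limma and with upper-quartile factors (0.0511 to 0.0946), and that of Adgre1 with a stricter filter (0.051). Neutrophil markers summed to 6.19 to 23.8 CPM for B6, 6.60 to 7.87 CPM for Tac111 and 34.5 to 160 CPM for Tac146. The Tac146 sums were mostly S100a8 and S100a9, at means of 30.3 and 49.8 CPM. Cxcr2 was at 3.29, 2.14 and 4.66 CPM in B6, Tac111 and Tac146, and Csf3r at 0.513, 0.414 and 0.595. Ly6g had 0 counts in every library. Whether these sums follow the number of neutrophils was not measured. The Tac146 library of replicate 4 stood apart, with S100a9 at 94.4 CPM beside 20.1 and 34.8 in replicates 2 and 3, and with the lowest mast cell and muscle marker sums of the 9 libraries. Without that library the number of the 8 genes called between Tac146 and B6 was still 0. The part of the myeloid markers in the effector results was not tested.

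**Figure D4:**
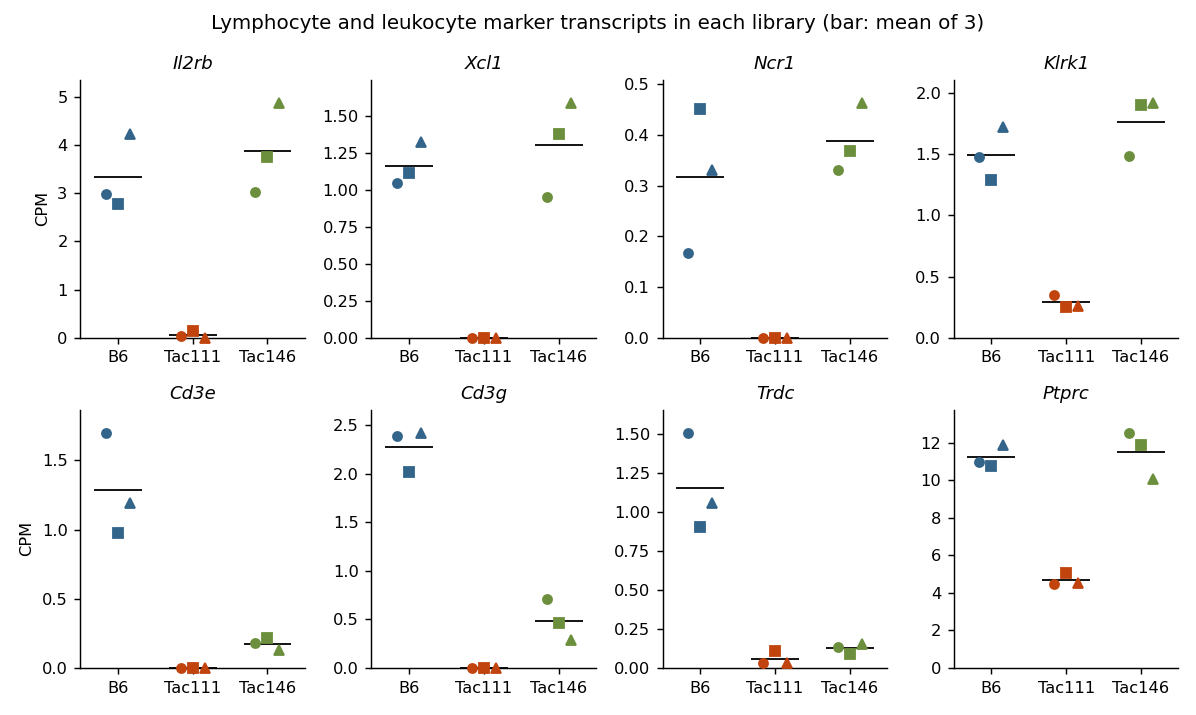
CPM of 8 lymphocyte and leukocyte markers in each library (symbols, bars and axes as in the plot of the effector genes). Il2rb, Xcl1, Ncr1 and Klrk1 overlap between B6 and Tac146, while Cd3e, Cd3g and Trdc lie lower in every Tac146 library than in every B6 library.

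The effector counts were also set against the marker counts. The summed level of the 8 genes was 12.3, 13.5 and 19.6 CPM in B6, 3.08, 2.10 and 1.45 in Tac111, nearly all of it Tnfsf10, and 13.8, 19.3 and 17.4 in Tac146. Divided by the counts of the 19 ILC1 and NK cell markers, the summed effector counts gave 0.434 ± 0.0912 in B6, 0.124 ± 0.0262 in Tac111 and 0.448 ± 0.0522 in Tac146 (SD, n = 3 each). Divided by Ptprc counts they gave 1.34 ± 0.276, 0.474 ± 0.190 and 1.49 ± 0.333. On both scales B6 and Tac146 overlapped and Tac111 lay below. The Tac111 ratios compare counts that are nearly all Tnfsf10 with counts that are mostly Itga1 and Itga2, while Ncr1, Xcl1 and Cd160 are at 0 there as most effectors are, so they do not show a fall beyond that of the lymphocyte markers. Divided by the T cell marker counts, the ratio was 0.591 ± 0.159 in B6 and 0.952 ± 0.188 in Tac146, without overlap. Cd5 and Trbc2 gave 57.5% ± 3.60 of these marker counts in B6 and 79.7% ± 4.42 in Tac146 (SD, n = 3 each). That ratio thus rests largely on these 2 genes, and effector counts per T cell were not measured. No test was run on these sums.

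The genes with the most similar profiles over the 9 libraries were sought for each tested effector among 14563 genes, by the root mean square difference of centred log2 levels, where a smaller value is closer. For Gzmc they were Il2rb (0.48), Gsdmc2 (0.51), which encodes a gasdermin of the C family, and Itgae (0.51), the integrin chain by which lymphocytes bind epithelium. For Ctsw they were Nlrc5 (0.24), an activator of MHC class I genes, Mrgprg (0.25), a receptor of the Mas-related family, and Pttg1 (0.29), the securin of the cell cycle. For Nkg7 they were Ccl22 (0.14), a chemokine of dendritic cells and macrophages, Nlrc5 (0.21) and Xcl1 (0.23). For Tnfsf10 they were Gbp9 (0.18) and Samd9l (0.18), both interferon-inducible, and Cd69 (0.19), an early activation marker of lymphocytes. Ctsw and Nkg7 differed from each other by 0.33 on this measure, and Gzmc from Ctsw by 0.70. Of these, Itgae had 4.78 ± 0.783 CPM in B6 and 4.63 ± 0.699 CPM in Tac146, beside 0.210 ± 0.143 CPM in Tac111 (SD, n = 3 each). These likenesses are descriptions over 9 libraries of 3 strains and rest mainly on the gap between Tac111 and the other strains. The 0.5 CPM added before taking logs limits how far a gene at 0 can fall, so a close gene need not share the fold. Ccl22 was at 5.83 CPM in B6 and 1.25 in Tac111, where Nkg7 was at 1.54 and 0.

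The other genes of the pathway were taken from 8 lists of 51 genes in the files, of which 42 were tested and 6 had 0 counts in every library. In Tac111 against B6, 6 fell, among them Ltb, Unc13d, Irf1, Cxcl9 and Cxcl10, and 0 rose. The median log2 difference of the 42 was -0.22, beside 0.02 over all genes tested. In Tac111 against Tac146, 6 fell, Ltb, Ap3b1, Jak1, Cxcl9, Cxcl10 and Cflar, and 0 rose, with a median of -0.18 beside 0.02. In Tac146 against B6 edgeR called 0, while 3 had an unadjusted p under 0.05, DESeq2 called 1 (Cxcl9) and limma 0, with a median of -0.02 beside 0.01. Over all genes tested, 2.8% were called lower in Tac111 than in B6 and 6.27% lower than in Tac146. Ltb, Cxcl9 and Cxcl10 passed the filter on low counts only through B6 and Tac146, so a difference from Tac111 was built into their passing.

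**Figure D5:**
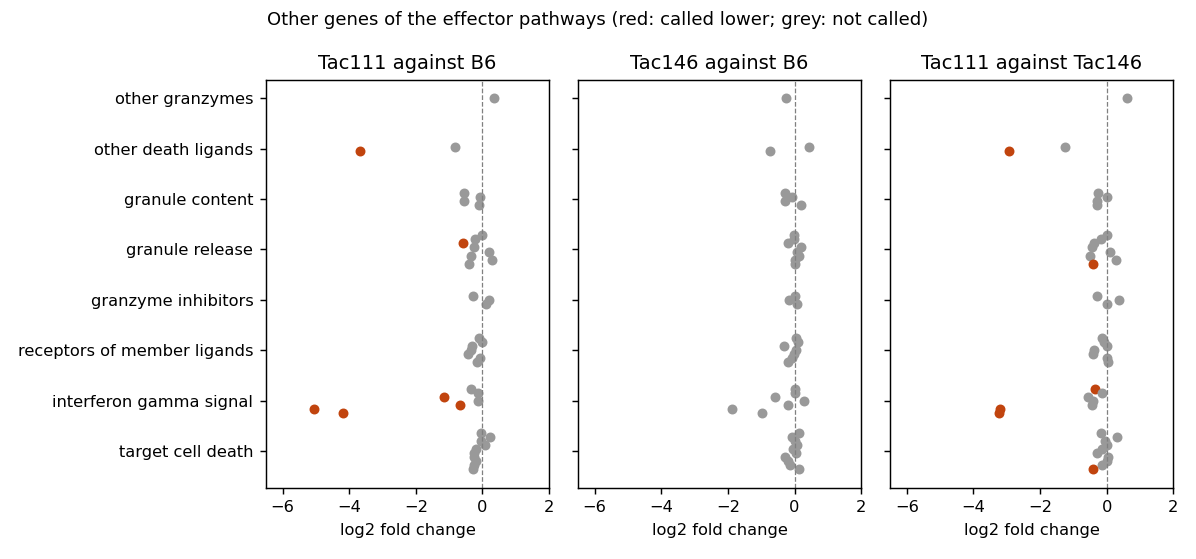
Log2 fold change of the 42 tested genes of the pathway lists in the 3 comparisons, 1 point a gene, by list (red: called lower by edgeR; grey: not called). Red points are 6 in Tac111 against B6, 0 in Tac146 against B6 and 6 in Tac111 against Tac146, and Cxcl9 and Cxcl10 lie farthest to the left together with Ltb.

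Among the other granzymes, Gzmd, Gzme, Gzmf, Gzmg, Gzmn and Gzmk had 0 counts in all libraries, and Gzmm did not follow Gzmc. Granzyme M is a granzyme of NK cells and other innate lymphocytes. Gzmm had 81, 47 and 48 counts in B6, 58, 64 and 84 in Tac111, and 66, 57 and 53 in Tac146. All 3 Tac111 libraries, at 1.86 to 2.44 CPM, lay above the Tac146 libraries, at 1.17 to 1.75, and overlapped B6, at 1.59 to 1.93. The log2 difference of Tac111 was 0.35 (SE 0.21, 95% interval -0.11 to 0.81, edgeR adjusted p = 0.337) from B6 and 0.60 (SE 0.21, 95% interval 0.14 to 1.06, edgeR adjusted p = 0.0859) from Tac146, and neither passed the test.

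Of the other death ligands and cytokines, 2 of 4 were tested. Ltb, which encodes lymphotoxin beta, had 48, 25 and 42 counts in B6, 0, 5 and 3 in Tac111, and 29, 29 and 24 in Tac146. The log2 difference of Tac111 was -3.67 from B6 (SE 0.56, adjusted p = 0.00559 in edgeR) and -2.93 from Tac146 (SE 0.58, adjusted p = 0.0168), the last call lost without Tac111 replicate 3 (0.0718) or Tac146 replicate 3 (0.0523). Fasl, which encodes the other classic death ligand of killer cells, had 5, 0 and 1 counts in B6, 0 in each Tac111 library, and 1, 4 and 5 in Tac146, and did not pass the filter on low counts.

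The granule machinery is shared by many cell types. Of 4 genes of granule content and granzyme maturation, such as Srgn, the proteoglycan that holds granzymes, and Ctsc, the protease that activates them, 0 were called in Tac111 against B6 by edgeR (1 had an unadjusted p under 0.05, and DESeq2 called 1, Srgn). Srgn was at 10.8 ± 0.270 CPM in B6 and 7.37 ± 0.330 in Tac111, and Ctsc at 73.1 ± 1.37 and 70.1 ± 5.54 (SD, n = 3 each). Of 8 granule release genes, Unc13d, which primes granules for fusion, was called lower in Tac111 than in B6, by -0.59 (SE 0.14, edgeR adjusted p = 0.0403). Ap3b1, a subunit of an adaptor for granule sorting, was called lower in Tac111 than in Tac146, by -0.41 (SE 0.11, adjusted p = 0.0498). The call of Unc13d was lost without any 1 of the B6 libraries, Tac111 replicates 2 and 3 or Tac146 replicate 2 (0.0523 to 0.15), and that of Ap3b1 without any 1 of the B6 or Tac111 libraries or Tac146 replicates 3 and 4 (0.0573 to 0.148), with only the 6 libraries compared (0.0908), with upper-quartile factors (0.057) and with limma (0.0512). Of 3 tested granzyme inhibitors and 7 receptors of the effector ligands, 0 were called in any comparison by edgeR, DESeq2 or limma. An unadjusted p under 0.05 was found for 1 inhibitor in Tac111 against Tac146 and for 1 receptor in each comparison of Tac111. Tnfrsf10b, the mouse receptor of TRAIL, had 3.32 ± 0.436 CPM in B6, 3.10 ± 0.384 CPM in Tac111 and 3.41 ± 0.0754 CPM in Tac146 (SD, n = 3 each).

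Of 7 genes that interferon gamma acts through or induces, 4 fell in Tac111 against B6, among them Cxcl9, Cxcl10 and Irf1, while Ifng itself was barely counted. Cxcl9, a chemokine gene induced by interferon gamma, had 108, 132 and 214 counts in B6, 8, 0 and 5 in Tac111, and 56, 30 and 76 in Tac146. The 3 strains did not overlap for Cxcl9, with B6 highest. The log2 difference of Tac111 from B6 was -5.06 for Cxcl9 (SE 0.60, adjusted p = 0.00124 in edgeR) and -4.20 for Cxcl10, a related chemokine gene (SE 0.47, adjusted p = 0.000926). It was -0.66 for Irf1, a transcription factor gene that interferon gamma induces early (SE 0.14, edgeR adjusted p = 0.0311). The call of Irf1 was lost without B6 replicate 2 or 3 or any 1 Tac111 library (0.0708 to 0.121). Against Tac146 the difference was -3.19 for Cxcl9 (SE 0.64, edgeR adjusted p = 0.0177, lost without Tac111 replicate 3 at 0.0754), -3.23 for Cxcl10 (SE 0.49, adjusted p = 0.00398) and -0.34 for Jak1, a kinase of the receptor (SE 0.09, adjusted p = 0.0392). Between Tac146 and B6, Cxcl9 differed by -1.87 (SE 0.43, 95% interval -2.82 to -0.91), which did not pass the edgeR test (adjusted p = 0.205). Which cells these transcripts came from was not measured.

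Of 10 genes of target cell death, 0 were called in Tac111 against B6 by edgeR, DESeq2 or limma, with 3 at an unadjusted p under 0.05. Against Tac146, 1 was called, Cflar, an inhibitor of death receptor signalling, lower by -0.40 (SE 0.10, edgeR adjusted p = 0.0393). The calls of Jak1 and Cflar against Tac146 were lost without B6 replicate 2 or 3, any 1 Tac111 library, or Tac146 replicate 3 or 4, and that of Jak1 also without B6 replicate 1 (edgeR adjusted p 0.0501 to 0.116). Both were lost with only the 6 libraries compared (0.0875 and 0.0822), and that of Jak1 with upper-quartile factors (0.0513).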

How the data were processed

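Poly(A) RNA of labial mucosa was sequenced after a stranded mRNA library preparation, per the labels' protocols, in 9 libraries of 3 strains. Per the file headers, the authors deposited expected counts, that is estimated reads for each gene symbol. STAR, RSEM and GRCm38 are named in the submitters' processing notes, while their versions, the annotation and the use of strand (not given in the sources used here) could affect overlapping genes or close copies, whose reads may have been divided between them. Fractional values numbered 2710 to 3195 a library. Repeated symbols (107) were summed, and 27 date-like lines were kept apart.

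Expected counts were rounded to whole numbers. Genes passing edgeR's filter on low counts (16523) were fitted with edgeR 4.0.16 in R 4.3.3 (TMM factors, quasi-likelihood test, 1 mean per strain over all 9 libraries), with Benjamini-Hochberg adjustment over all of them and a threshold of 0.05. The script was tested on simulated data. CPM values use TMM-scaled library sizes. Folds against a group at 0 use a floor of 3 counts over the group. Counting intervals are exact 95% binomial intervals. Likeness used log2(CPM + 0.5), and the 3 closest genes were named. Pathway genes were named where called in at least 1 comparison, and a few others (Gzmm, Fasl, Srgn, Ctsc, Tnfrsf10b, and Il2rg) were picked as examples. The granzymes with 0 counts in every library were also named. Alternatives were other scaling factors, other filters, a replicate block, pairs of strains alone, each library left out, DESeq2 1.42.0, and limma 3.58.1 on log2(CPM + 1). The 8 genes and the gene lists were chosen with earlier results of these data known. Vamp7 of the lists was not analysed here, and 1 other list gene is counted but not reported here.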

Additional observations from a re-analysis of the deposited data

How the results depend on the processing

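Gzmc, Ctsw and Nkg7 kept their direction and their call in Tac111 against both other strains in each of the 17 alternatives. Of 204 alternative values for the log2 differences of the 4 tested effectors, 193 kept direction and side of the threshold, 5 lost a call and 4 gained one, all 9 of them for Tnfsf10, and 2 reversed. The reversed ones were Nkg7 in Tac146 against B6, at 0.21 without B6 replicate 3 and 0.15 without Tac146 replicate 3, neither called (range -0.21 to 0.21 leaving out each library). The cause of the changes below was not tested. With no filter, 5 effectors were called in Tac111 against Tac146 and 1 and 10 pathway genes in Tac146 against B6 and Tac111 against Tac146. Genes called over the whole table became 1020 in Tac111 against B6 and 129 in Tac146 against B6. DESeq2 called 1213, 136 and 2677 genes in Tac111 against B6, Tac146 against B6 and Tac111 against Tac146, and 1 and 11 pathway genes in the last 2. With only the 6 libraries compared, 26 genes were called in Tac146 against B6 and 641 in Tac111 against Tac146. Leaving out each library in turn, the effectors called ranged from 3 to 5 in Tac111 against B6 and from 3 to 5 against Tac146 (5 without Tac146 replicate 2, with Prf1 and Tnfsf10), and were 0 in Tac146 against B6. Pathway genes ranged from 3 to 9 in Tac111 against B6 (3 without Tac111 replicate 2 or 3) and from 1 to 7 against Tac146 (1 without Tac111 replicate 3, 2 without Tac146 replicate 3, 3 without B6 replicate 2 or Tac111 replicate 1 or 2), and were 0 in Tac146 against B6. All genes ranged from 295 to 958 in Tac111 against B6, moving by over 1.5 times without B6 replicate 2 (349) or 3 (320), Tac111 replicate 2 (295) or 3 (359) or Tac146 replicate 4 (958). They ranged from 470 to 1829 in Tac111 against Tac146, moving so without B6 replicate 2 (793), Tac111 replicate 1 (907), 2 (483) or 3 (470) or Tac146 replicate 3 (498) or 4 (878), and from 33 to 64 in Tac146 against B6, moving so without B6 replicate 2 or 3 (33 each). The summed effector CPM ranged from 12.9 to 16.6 for B6, 1.77 to 2.59 for Tac111 and 15.6 to 18.4 for Tac146, and its ratio to ILC1 and NK cell markers from 0.382 to 0.464, 0.109 to 0.135 and 0.419 to 0.470, both added after seeing the data. With T cell markers as the reference the ratio was 0.591 in B6 and 0.952 in Tac146, and with Ptprc 1.34, 0.474 and 1.49 in B6, Tac111 and Tac146.

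Same-numbered libraries deviated together with correlations of -0.155 to 0.285, and not every library correlated best with its own number. Deviations from a mean of 3 libraries depend on one another, so these values cannot decide whether the replicate numbers paired the samples. With the replicate block, 3 effectors were called in Tac111 against B6 (Tnfsf10 lost, adjusted p = 0.0508), 3 in Tac111 against Tac146 and 0 in Tac146 against B6. The block left 632 genes and 2 pathway genes called in Tac111 against Tac146. Among the marker and pathway calls it also lost Cd3d (0.13), Cd3e (0.181), Cd3g (0.21), Trac (0.181) and Trdc (0.0838) in Tac146 against B6, Klrc1 (0.0595) in Tac111 against B6, and Ap3b1 (0.239), Cflar (0.182), Jak1 (0.152) and Cxcl9 (0.071) in Tac111 against Tac146. Marker calls lost in Tac111 against Tac146 were those of Cxcr2 (0.155), Klrc1 (0.0919), Itga1 (0.0558) and Trbc1 (0.053). Tac146 replicate 4 has no partner and adds nothing to that fit.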
